A study of Homo sapiens with 6 samples.

Results

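A set of 10 integrin subunit genes was followed across 6 RNA libraries of HK2 cells, an established human cell line from the epithelium of the kidney's proximal tubule. The 10 genes were picked by symbol, as a family and with earlier results of these data known. They were the alpha subunits ITGA2, ITGA3, ITGA5, ITGA6 and ITGAV, and the beta subunits ITGB1, ITGB3, ITGB4, ITGB5 and ITGB8. All 10 were found among the 61806 genes of the count table, of which 35253 had a count, and all 10 passed the filter on low counts. All cells were transfected with a FLAG-VMP1 plasmid and collected after 48 hours; VMP1 sits in the membrane of the endoplasmic reticulum and is needed for autophagosomes to form. One group was 3 libraries of total lysate, titled positive controls, and the other was 3 libraries of RNA recovered with FLAG antibody beads, titled FLAG VMP1 IP and called IP here. Setting the second group against the first shows which RNAs took a larger or smaller share after the pull-down. Cells lacking the FLAG construct were not analysed here. Separate cultures are not stated in the labels, and p-values then measure the spread among these 6 samples alone, possibly a technical one.

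Integrins are receptors of the cell surface, each built from one alpha and one beta subunit that pair in the endoplasmic reticulum before they travel to the membrane. Outside the cell they bind basement membrane and matrix proteins, and inside it their tails engage talin and kindlin and link to actin. In kidney tubule epithelium they hold the cell to the laminin and collagen IV of the tubular basement membrane. ITGB1 pairs with many alpha subunits, ITGB4 only with ITGA6, and ITGAV with ITGB1, ITGB3, ITGB5, ITGB6 or ITGB8.

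Library totals were 77753608 to 92948069 counts in the lysates and 54363555 to 59293096 in the immunoprecipitates. VMP1 itself was at 297 to 306 CPM (counts scaled to library size with TMM factors) in the lysates, 2347 in IP 1 and 2685 in IP 3. In the library labelled IP 2 it was at 274 CPM, below every lysate, so the tests of the 10 genes and the counts per list are also given without that library. On the log2 CPM scale, across 20593 genes, that library correlated at 0.905 to 0.908 with the lysates, 0.826 with IP 1 and 0.788 with IP 3, while IP 1 and IP 3 correlated at 0.911. Genes are not independent replicates. Whether that library holds the sample its label names was not tested, and this touches its values and every fold change over 6 libraries. The kidney epithelial label was checked against marker genes. KRT8, KRT18, KRT19, EPCAM, GGT1 and PAX8 were present in every lysate, with PAX8 at 35.8 to 38.1 FPKM (fragments scaled by gene length and library size). CDH1, the epithelial cadherin, was at 0.177 to 0.258 FPKM and HNF4A, a tubule transcription factor, at 0.00428 to 0.00801 FPKM in the lysates. Among the 10 proximal tubule markers found of 12, 6 were under 1 CPM in each lysate.

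In IP 1 and IP 3 all 10 integrin subunit genes were below every lysate, which 40.1% of tested genes were, and in the library labelled IP 2 the genes split. ITGA2, ITGA5 and ITGA6 were above every lysate there, and the other 7 were below, as 42.1% of tested genes were. Over all 6 libraries edgeR called 2 of the 10 genes, ITGA3 and ITGAV, both lower in the immunoprecipitate, and 0 higher. Of 20593 genes tested, 0.5% were called lower and 0.16% higher. DESeq2, run as an alternative, called 6 of the 10 lower, where it called 6.55% of 18543 genes lower. Without the library labelled IP 2, all 10 were called lower, where 27.2% of 22062 genes tested were called lower and 23.9% higher. The median log2 fold change (immunoprecipitate minus lysate) of the 10 genes was -1.06 over 6 libraries and -1.35 without that library. Over all tested genes these medians were 0.06 and -0.06. CPM and FPKM are relative to each library's own total and do not measure how much RNA was recovered.

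The 10 genes together took 0.612%, 0.618% and 0.599% of all gene counts in lysates 1, 2 and 3. They took 0.270% in IP 1, 0.359% in the library labelled IP 2 and 0.267% in IP 3. The 3 lysates were therefore within a narrow band and every immunoprecipitate lay below it. The share of tested genes with all immunoprecipitates below all lysates was 17.7%, and 7 of the 10 genes did this. The remaining 3 had IP 1 and IP 3 below and the library labelled IP 2 above all lysates, as 16.4% of tested genes did. IP 1 and IP 3 were close to each other, with a median gap of 0.05 (log2) over the 10 genes against 0.27 over all tested genes. The largest gap was 0.54, for ITGA2, the gene with the lowest CPM of the 10 in both. These 2 medians were not matched for level.

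**Figure D1:**
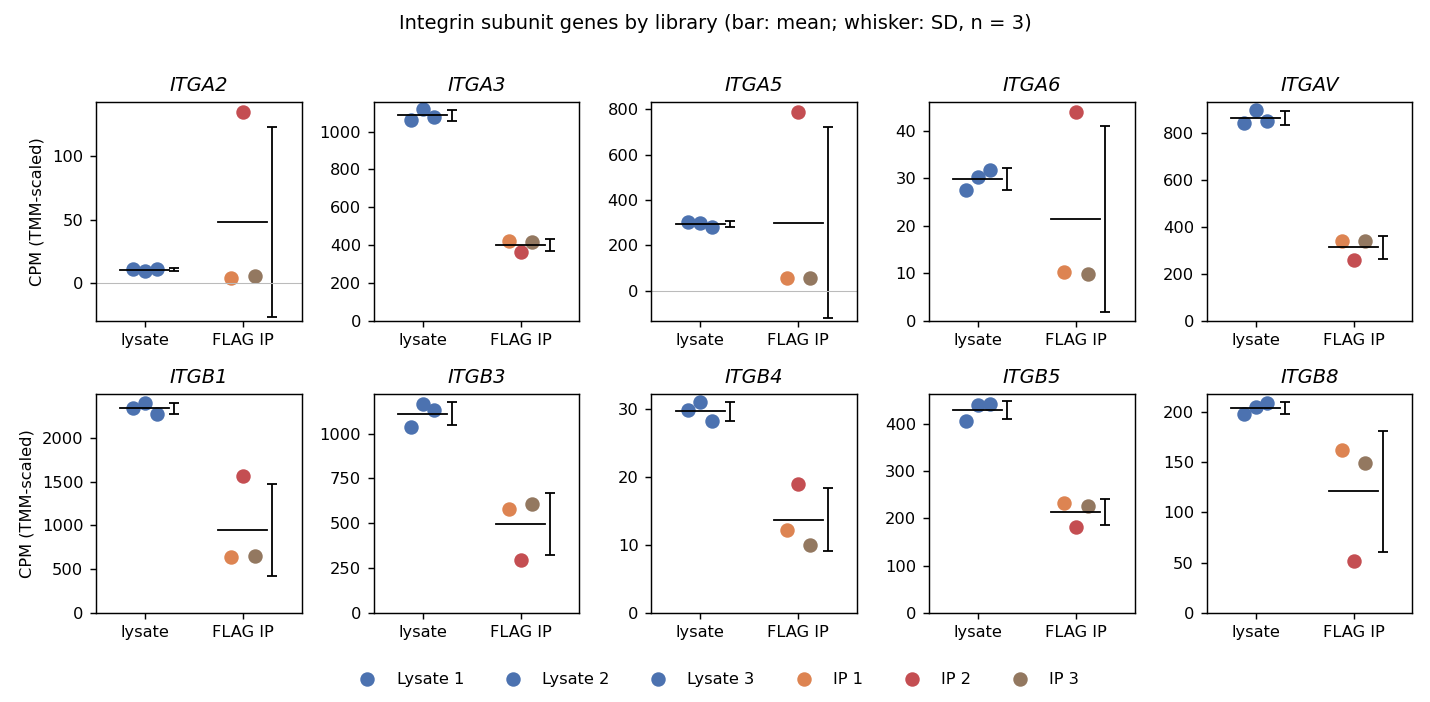
TMM-scaled CPM (linear axis) of each of the 10 integrin subunit genes in the 3 lysates and the 3 immunoprecipitates, 1 point per library, with the group mean as a bar and the SD (n = 3) as a whisker. IP 1 and IP 3 lie below the lysates in all 10 panels, while IP 2 lies above them for ITGA2, ITGA5 and ITGA6.

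Promoter sequences are shown for 2 genes that were above every lysate in the library labelled IP 2 (ITGA2, ITGA5) and 2 that were below the lysates in all 3 immunoprecipitates (ITGAV, ITGB5). They were picked as examples, and the sequences of ITGA6, ITGB1 and ITGB8 are not shown. Each line is the 150 bases before the annotated transcription start, 5′ to 3′ on the transcribed strand, from RefSeq on GRCh38.p14. The windows are chr5:52989202-52989351 (plus strand) for ITGA2, chr12:54419267-54419416 (minus strand) for ITGA5, chr2:186589906-186590055 (plus strand) for ITGAV and chr3:124887366-124887515 (minus strand) for ITGB5. Capitals mark GC boxes (GGGCGG or CCGCCC, the 2 strands of 1 motif).
ITGA2: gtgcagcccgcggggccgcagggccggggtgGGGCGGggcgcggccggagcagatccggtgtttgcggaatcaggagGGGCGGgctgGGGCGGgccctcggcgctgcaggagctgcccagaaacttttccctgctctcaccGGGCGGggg
ITGA5: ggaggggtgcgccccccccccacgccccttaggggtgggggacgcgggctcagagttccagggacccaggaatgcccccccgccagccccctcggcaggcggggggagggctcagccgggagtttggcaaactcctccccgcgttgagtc
ITGAV: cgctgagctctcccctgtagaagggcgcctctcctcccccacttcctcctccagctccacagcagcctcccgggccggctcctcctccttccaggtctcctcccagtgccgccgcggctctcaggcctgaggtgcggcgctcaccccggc
ITGB5: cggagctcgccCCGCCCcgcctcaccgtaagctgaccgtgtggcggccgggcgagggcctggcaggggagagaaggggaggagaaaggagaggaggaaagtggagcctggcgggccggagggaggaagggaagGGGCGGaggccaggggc

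These stretches held 4 GC boxes for ITGA2, 2 for ITGB5 and 0 for ITGA5 and ITGAV. In the 250 bases before the start the counts were 4 for ITGA2, 3 for ITGA6, ITGB1 and ITGB5, 2 for ITGB8, 1 for ITGA5 and 0 for ITGAV. Of the 10 genes, 7 matched the promoter table: ITGA2, ITGA5, ITGA6, ITGAV, ITGB1, ITGB5 and ITGB8. Over that longer window, 6 of these 7 held a GC box, as did 42.6% of 35116 promoters of the same length. ITGAV was the gene without one. The GC content of these windows ran from 70% for ITGA5 to 78.4% for ITGB1, and the median over all promoters was 58%. An AP-1 motif (TGAGTCA or TGACTCA) was in 0 of 7 windows and in 4.2% of all. A CCAAT box (CCAAT or ATTGG) was in ITGB8 alone among the 7 and in 32% of all. A TATA box (TATAAA, transcribed strand only) was in 0 of 7 and in 6.8% of all. These matches describe letters in a window and were not tested against any measurement.

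ITGA3 encodes the alpha 3 subunit, which pairs with beta 1 as a laminin receptor of the tubular basement membrane (ENSG00000005884, chromosome 17, 50055968 to 50090480, plus strand). It was at 1063, 1118 and 1076 CPM in lysates 1, 2 and 3, at 424 in IP 1, 363 in the library labelled IP 2 and 414 in IP 3. The groups did not overlap, and the 3 immunoprecipitates spanned 363 to 424 CPM beside 1063 to 1118 in the lysates. The lysate mean was 1086 ± 29.0 CPM and the immunoprecipitate mean 400.0 ± 32.7 CPM (SD, n = 3 each), and the log2 fold change was -1.44 (edgeR adjusted p = 0.0426, SE 0.18). Leaving out the library labelled IP 2 gave -1.36 (edgeR adjusted p = 6.77e-06, SE 0.04). ITGA3 was thus the alpha subunit with the most even values across the immunoprecipitates, and leaving out any other library took its edgeR adjusted p above the threshold, to between 0.158 and 0.399.

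ITGAV encodes the alpha V subunit of receptors for vitronectin, fibronectin and latent TGF-beta (ENSG00000138448, chromosome 2, 186590010 to 186680901, plus strand). It was at 846, 901 and 851 CPM in the lysates, 342 in IP 1, 258 in the library labelled IP 2 and 341 in IP 3. All immunoprecipitates were below all lysates, the library labelled IP 2 lowest. The lysate mean was 866 ± 30.2 CPM and the immunoprecipitate mean 314 ± 48.3 CPM (SD, n = 3 each), and the log2 fold change was -1.47 (edgeR adjusted p = 0.0485, SE 0.20) and -1.33 (edgeR adjusted p = 7.63e-06, SE 0.05) without the library labelled IP 2. Leaving out any other library took the edgeR adjusted p to between 0.158 and 0.410.

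ITGA5 encodes the alpha 5 subunit, which with beta 1 forms the main fibronectin receptor (ENSG00000161638, chromosome 12, 54395261 to 54419266, minus strand). It was at 305, 299.6 and 279.8 CPM in the lysates. IP 1 and IP 3 were at 57.8 and 58.3 CPM. In the library labelled IP 2 it was at 786 CPM, 2.67-fold the lysate mean. The lysates lay between the immunoprecipitates. The log2 fold change was 0.03 (edgeR adjusted p = 0.990, SE 1.03) over 6 libraries. ITGA5 fell by 2.33 on the log2 scale without the library labelled IP 2 (edgeR adjusted p = 6.40e-06, SE 0.07), the lowest value of the 10 genes. In IP 1 only 0.874% of tested genes had a lower shift from the lysate mean than ITGA5, and in IP 3 2.61% did. In the library labelled IP 2 5.66% had a higher one.

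ITGA2 encodes the alpha 2 subunit of a collagen and laminin receptor with beta 1 (ENSG00000164171, chromosome 5, 52989340 to 53094779, plus strand). It was at 10.8, 9.22 and 11.4 CPM in the lysates. IP 1 and IP 3 were at 3.76 and 5.70 CPM. In the library labelled IP 2 it was at 135 CPM, 12.9-fold the lysate mean, from 7126 counts. Of all tested genes 0.714% had a higher shift in that library. The log2 fold change was 2.199 (edgeR adjusted p = 0.389, SE 1.34) over 6 libraries and -1.13 (edgeR adjusted p = 0.0101, SE 0.25) without it, so the sign turned on 1 library.

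ITGA6 encodes the alpha 6 subunit, a laminin receptor subunit that pairs with beta 1 or, in hemidesmosomes, with beta 4 (ENSG00000091409, chromosome 2, 172427354 to 172506459, plus strand). It was at 27.5, 30.3 and 31.9 CPM in the lysates, 10.3 in IP 1, 44.0 in the library labelled IP 2 and 9.89 in IP 3. It followed the order seen for ITGA5, with a smaller excess in the library labelled IP 2. The log2 fold change was -0.48 (edgeR adjusted p = 0.683, SE 0.61) over 6 libraries and -1.55 (edgeR adjusted p = 8.04e-05, SE 0.11) without that library.

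**Figure D2:**
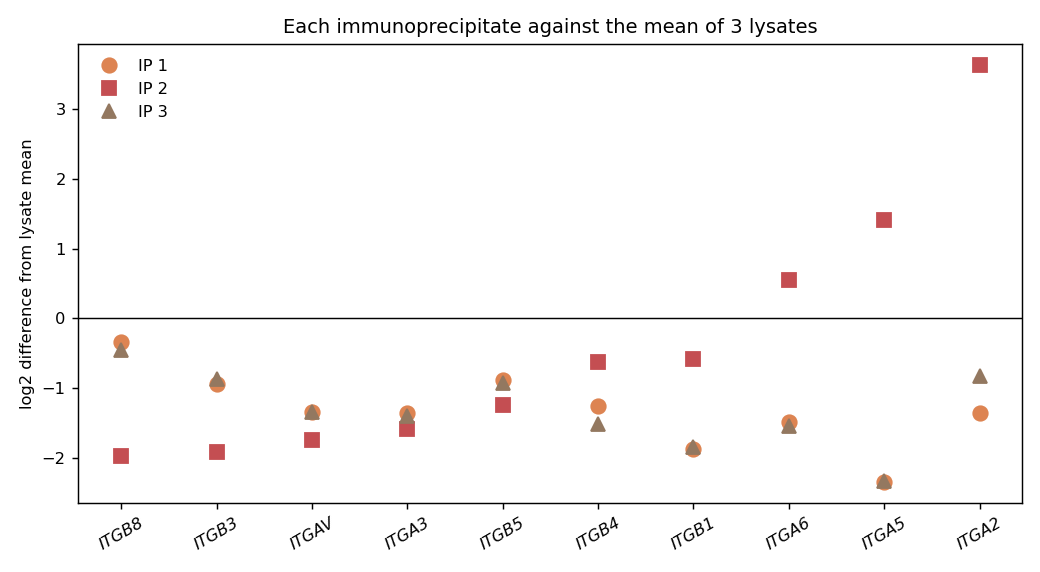
Log2 difference of each immunoprecipitate from the mean of the 3 lysates (y axis) for the 10 genes (x axis), ordered by IP 2, with 1 symbol per library. The circles and triangles of IP 1 and IP 3 nearly coincide and stay between -2.34 and -0.33, while the squares of IP 2 run from -1.96 for ITGB8 to 3.63 for ITGA2.

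ITGB1 encodes the beta 1 subunit, the shared partner of the collagen, laminin and fibronectin receptors (ENSG00000150093, chromosome 10, 32887273 to 33005792, minus strand). It was at 2339, 2399 and 2271 CPM in the lysates, 642 in IP 1, 1559 in the library labelled IP 2 and 652 in IP 3. The groups did not overlap, but the library labelled IP 2 was well above the other immunoprecipitates. The log2 fold change was -1.30 (edgeR adjusted p = 0.159, SE 0.40) over 6 libraries and -1.84 (edgeR adjusted p = 5.68e-06, SE 0.04) without that library, the largest fall among the beta subunits.

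ITGB3 encodes the beta 3 subunit, which pairs with alpha V in the vitronectin receptor and is otherwise known from platelets (ENSG00000259207, chromosome 17, 47253827 to 47313743, plus strand). It was at 1040, 1165 and 1131 CPM in the lysates, 581 in IP 1, 294 in the library labelled IP 2 and 608 in IP 3. Here the library labelled IP 2 was the lowest of the 6, whereas for ITGB1 it was the highest of the 3 immunoprecipitates. The log2 fold change was -1.17 (edgeR adjusted p = 0.129, SE 0.32), and -0.89 (edgeR adjusted p = 4.53e-05, SE 0.06) without that library. EFCAB13-DT, a noncoding gene on the other strand that overlaps ITGB3, had 193 to 211 counts in the lysates, 811 in IP 1, 32 in the library labelled IP 2 and 1040 in IP 3, against at least 15556 counts of ITGB3 in each library.

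ITGB5 and ITGB8 encode the other 2 beta subunits of alpha V receptors, the first known from vitronectin binding and the second from activation of latent TGF-beta. ITGB5 (ENSG00000082781, chromosome 3, 124761948 to 124901418, minus strand) was at 407, 441 and 442 CPM in the lysates, 232 in IP 1, 182 in the library labelled IP 2 and 227 in IP 3. All immunoprecipitates were below the lysates, at 42.2% to 54.0% of the lysate mean. Its log2 fold change was -1.01 (edgeR adjusted p = 0.0795, SE 0.18), and -0.89 (edgeR adjusted p = 3.25e-05, SE 0.05) without the library labelled IP 2. ITGB8 (ENSG00000105855, chromosome 7, 20330702 to 20410330, plus strand) was at 197, 205 and 209 CPM in the lysates, 162 in IP 1, 51.8 in the library labelled IP 2 and 149 in IP 3. The main ITGB8 transcript, ENST00000222573, runs on to 20415754, beyond the gene end given with the deposited values. IP 1 and IP 3 stayed closest to the lysates for this gene, at 79.4% and 73.2% of the lysate mean. Its log2 fold change was -0.75 (edgeR adjusted p = 0.350, SE 0.42), and -0.38 (edgeR adjusted p = 0.00202, SE 0.06) without the library labelled IP 2, the smallest fall of the 10 genes.

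ITGB4 encodes the beta 4 subunit of the hemidesmosome, whose long tail binds plectin (ENSG00000132470, chromosome 17, 75721328 to 75757818, plus strand). It was at 29.8, 31.0 and 28.2 CPM in the lysates, 12.1 in IP 1, 19.0 in the library labelled IP 2 and 10.04 in IP 3. No immunoprecipitate reached the lysates. The log2 fold change was -1.11 (edgeR adjusted p = 0.118, SE 0.28), and -1.41 (edgeR adjusted p = 0.000199, SE 0.12) without the library labelled IP 2. GALK1, on the other strand, overlaps its end and was at 19.0 CPM in the lysates. The sources used here do not give the use of strand in counting, so reads in the overlap are uncertain.

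The deposited FPKM per gene place the 10 genes in order in the lysates, but this order depends on the length taken for each gene. FPKM per transcript can order them differently. In lysate 2 the ITGB1 transcript ENST00000488494 alone was at 244 FPKM, against 172 for ENST00000559488, the main ITGB3 transcript. On the FPKM scale (means of 3 lysates) ITGB3 (147.7) and ITGB1 (145.6) were highest by mean and overlapped each other. ITGA3 followed at 100.5, ITGB5 at 59.9, ITGAV at 40.6, ITGA5 at 36.3 and ITGB8 at 12.2, each apart from its neighbours in all 3 lysates. ITGA6 (4.05) and ITGB4 (3.98) overlapped, and ITGA2 was lowest at 1.20. In IP 1 and IP 3 the FPKM order differed by ITGB8 passing ITGA5 and ITGB4 passing ITGA6, the latter by 1.523 against 1.521 FPKM in IP 3. In the library labelled IP 2 it was ITGB1 at 99.9 and ITGA5 at 99.4 FPKM that led, followed by ITGB3 at 40.2, and ITGA2 had moved past ITGAV, at 15.9 against 12.4.

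As a share of the summed FPKM of the 10 genes, ITGA5 made up 6.26% to 6.98% in the lysates, 3.16% in both IP 1 and IP 3, and 29.2% in the library labelled IP 2. ITGB3 made up 25.7% to 27.4% in the lysates, 34.3% in IP 1 and 35.6% in IP 3, and 11.8% in the library labelled IP 2. Thus IP 1 and IP 3 lay on one side of the lysates and the library labelled IP 2 on the other, with opposite sides for these 2 genes. ITGAV made up 7.13% in IP 1 and 7.06% in IP 3, slightly below the lysates at 7.27% to 7.42%, and 3.65% in the library labelled IP 2.

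**Figure D3:**
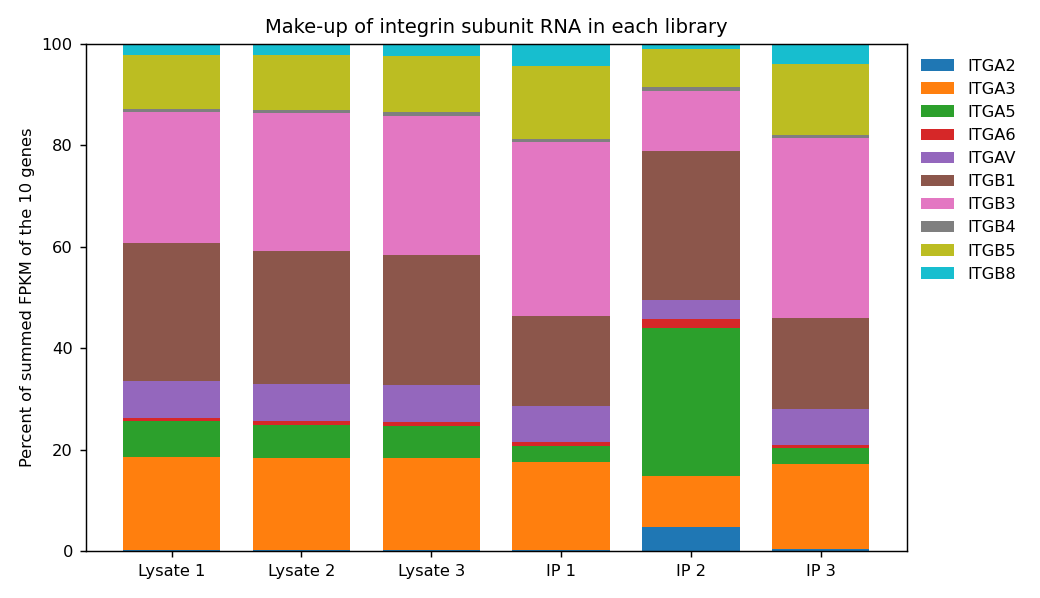
Percent of the summed FPKM of the 10 genes that each gene took (stacked bars, y axis) in each of the 6 libraries (x axis). The lysate bars look alike, ITGB3 is widest in IP 1 and IP 3, and ITGA5 takes 29.2% in IP 2.

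Subunits were set against each other as ratios of their FPKM within a library, which removes the scaling between libraries. The size of a ratio still depends on the length taken for each gene, so ratios are compared between libraries only. Of the 11 ratios examined, 9 were of an alpha over a beta subunit and 2 of ITGA5 over another alpha subunit. For the fibronectin receptor, ITGA5 over ITGB1 was 0.257, 0.246 and 0.243 in the lysates, 0.178 in IP 1, 0.995 in the library labelled IP 2 and 0.176 in IP 3. For the hemidesmosome receptor, ITGA6 over ITGB4 was 0.934, 0.990 and 1.14 in the lysates, 0.860 in IP 1, 2.34 in the library labelled IP 2 and 0.999 in IP 3. ITGAV over ITGB5 was 0.700, 0.688 and 0.650 in the lysates and 0.495, 0.478 and 0.506 in IP 1, 2 and 3. In this pair the immunoprecipitates lay together on one side, below all lysates, with a two-sided exact permutation p of 0.1. That is the smallest p that 3 against 3 libraries allow, so no ratio could pass a threshold of 0.05. A further 2 ratios, ITGA2 over ITGB1 and ITGA6 over ITGB1, were above the lysates in all immunoprecipitates with the same p. For ITGA6 over ITGB1 the values were 0.0256, 0.0275 and 0.0306 in the lysates and 0.0350, 0.0614 and 0.0330 in IP 1, 2 and 3.

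The deposited transcript counts split each gene over its annotated transcripts, a split that is an estimate where transcripts overlap. The 10 genes had 118 transcripts with a count, of which 65 could be tested. edgeR called 0 of them over 6 libraries, where 0% of all 62534 tested transcripts were called, and 13 of the 65 had an unadjusted p under 0.05. The share of all tested transcripts with such a p is not given here, so the 13 are not read as a result. Without the library labelled IP 2, edgeR called 12 of 69 lower (6.1% of all tested transcripts) and 1 higher (2.45% of all). For ITGA2, ITGA5, ITGB3, ITGB5 and ITGB8, a single coding transcript took between 85.5% and 100% of the gene's counts in every library. For these genes the values of the gene are largely those of 1 transcript.

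ITGB5 held the only transcript called higher without the library labelled IP 2, ENST00000460797, annotated as a retained intron. It was at 0.536, 0.599 and 0.621 CPM in the lysates, 4.05 in IP 1, 0.934 in the library labelled IP 2 and 4.73 in IP 3 (edgeR adjusted p = 0.0444 without the library labelled IP 2). This transcript is the only listed retained intron of ITGB5 and had 37 to 50 counts in the lysates. It took 0.120% to 0.129% of ITGB5 counts there, 1.80% in IP 1, 0.4996% in the library labelled IP 2 and 2.40% in IP 3. In ITGA5 the 8 retained-intron transcripts together took 0.386% to 0.561% in the lysates, 6.18% in IP 1, 0.531% in the library labelled IP 2 and 4.32% in IP 3. In both genes IP 1 and IP 3 were above the lysates while the coding transcript remained the main one. ITGA3 and ITGB1 also had IP 1 and IP 3 above the lysates. The ITGA3 lysates spread from 7.68% to 56.7%, and ITGB1 was at 0.878% in IP 1 and 37.6% in IP 3. How many of all genes rise in this way was not counted. ITGAV did not rise in both, with 0.747% to 1.97% in the lysates, 1.84% in IP 1 and 0.600% in IP 3. ITGB4 had both within the lysates, at 0.130% and 0.156% beside 0.119% to 0.397%. ITGA6 and ITGB8 had IP 1 above the lysates and IP 3 not, with ITGA6 at 0 counts in IP 3, and ITGA2 and ITGB3 have no listed retained-intron transcript.

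ITGB4 was assigned to different coding transcripts in different libraries. ENST00000200181, of 40 exons, took 99.7% of ITGB4 counts in IP 1 and in IP 3. It took 0%, 0.951% and 0.363% in the lysates; the library labelled IP 2 gave it 0%, where 0 of 1005 counts allows a share of up to 0.299%. In lysate 1, 0 of 2266 counts allows up to 0.132%. The lysates and the library labelled IP 2 were instead split between ENST00000579662 (42.6%, 87.3%, 64.5% and 58.8%) and ENST00000450894 (56.5%, 11.1%, 34.5% and 40.4%), each of 39 exons. Lysate 1 differed from lysates 2 and 3 in which of these was larger. Both transcripts were at 0 counts in IP 1 and IP 3, which allows up to 0.389% and 0.467%. Such limits cover counting error only, not the assignment of reads. Over 6 libraries usage of transcripts was called in 0 of the 10 genes (edgeR diffSpliceDGE with Simes' method, called in 2.32% of 11671 genes tested), and 2 of the 10, ITGAV and ITGB1, had an unadjusted p under 0.05. The share of all genes with such a p is not given here. With the library labelled IP 2 left out, usage was called in ITGB4 alone (edgeR adjusted p = 0.0155), where 11.7% of 12602 genes were called.

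ITGA6 showed a like arrangement. ENST00000684293 took 54.2%, 54.0% and 72.0% of ITGA6 counts in the lysates, 98.6% in IP 1, 35.3% in the library labelled IP 2 and 100% in IP 3. ENST00000409080, of 25 exons against 26, took 19.2%, 30.0% and 27.9% in the lysates; the library labelled IP 2 gave it 33.9%. It was at 0 counts in IP 1 and IP 3, which allows up to 0.457% and 0.475%, and edgeR called it lower without the library labelled IP 2 (adjusted p = 0.0230). Usage of ITGA6 as a whole did not pass the threshold (edgeR Simes adjusted p = 0.0923 without that library).

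In ITGA3, ITGAV and ITGB1 the lysates differed among themselves, as they also did in ITGB4 and ITGA6. The immunoprecipitates have no steady level to be read against. The ITGA3 transcript ENST00000505306, annotated as a retained intron though it has 24 exons, took 6.61%, 56.3% and 46.5% in the lysates, 80.5% in IP 1, 7.58% in the library labelled IP 2 and 89.8% in IP 3. The coding ITGA3 transcript ENST00000320031 took 91.8%, 42.8% and 8.12% in the lysates, and 14.6%, 69.8% and 4.52% in IP 1, 2 and 3. The coding ITGB1 transcript ENST00000488494 took 0%, 42.6% and 57.3% in the lysates and was at 0 counts in all 3 immunoprecipitates, which allows up to 0.00736%, 0.00364% and 0.00720%. The ITGAV transcript ENST00000696908, annotated for nonsense-mediated decay, took 11.7%, 2.06% and 19.9% in the lysates and was also at 0 counts in all 3, which allows up to 0.0138%, 0.0220% and 0.0137%. edgeR called ENST00000696908 lower without the library labelled IP 2 (adjusted p = 0.0428), and ENST00000488494 did not pass there (adjusted p = 0.219). In ITGAV, ENST00000696937, annotated for nonsense-mediated decay, took 62.9% in IP 3 and at most 0.447% in each other library. In ITGB1, the retained-intron transcript ENST00000676623 took 37.6% in IP 3 and at most 0.856% in each other library. IP 1 and IP 3, so alike in the gene totals, therefore differed in the assignment for these 2 genes.

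**Figure D4:**
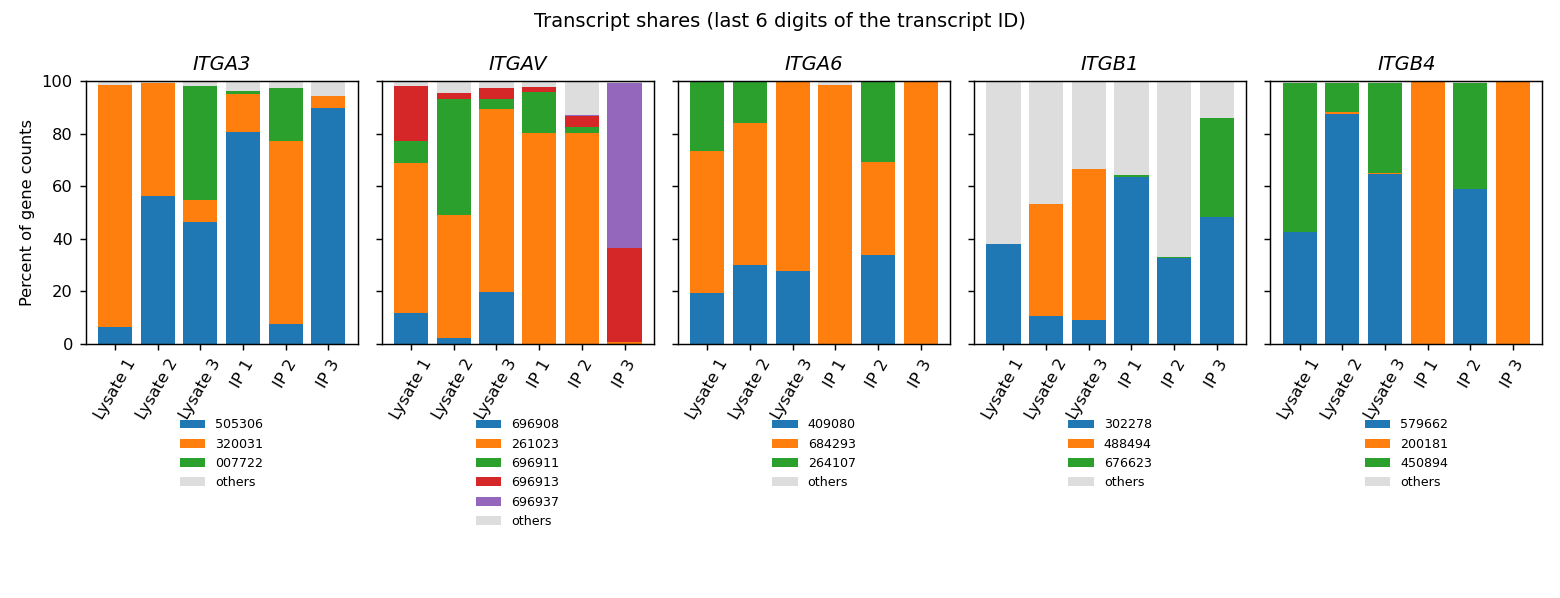
Percent of a gene's counts (stacked bars, y axis) assigned to each transcript that reached 10% in the mean of either group, for the 5 genes with several such transcripts, in the 6 libraries (x axis); grey is all others. ITGB4 and ITGA6 look alike in IP 1 and IP 3, while the lysates differ among themselves in all 5 genes.

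Other genes of the pathway were taken from 8 lists of 133 genes, of which 132 were found and 129 tested. Over 6 libraries 8 were called lower and 0 higher, all of them matrix ligands or lateral partners of integrins. Of all tested genes 0.5% were called lower and 0.16% higher. Matrix ligands had 6 of 27 called lower, with a median log2 fold change of -0.88. COL4A1 and COL4A2, the collagen IV chains of basement membrane, fell by 3.02 and 2.96 on the log2 scale (edgeR adjusted p = 0.0387 and 0.0343), and NID1, the nidogen that bridges laminin and collagen IV, fell by 2.17 (edgeR adjusted p = 0.0333). FN1, FBN1 and NPNT were the other ligands called. These 6 ligands lay below all lysates in all 3 immunoprecipitates, as did 14 of the 27 ligands and 17.7% of all tested genes. A call over 6 libraries favours genes on which the immunoprecipitates agree. Other ligands were above all lysates in the library labelled IP 2, as ITGA2 and ITGA5 were. Among them COL1A1 was at 148 CPM there against 24.1 to 30.1 in the lysates. TNC was at 454 against 104 to 115, and LAMB3 at 516 against 94.5 to 98.2. Without that library 21 of 27 ligands were called lower and 2 higher, beside 27.2% and 23.9% of all tested genes. COL4A1, COL4A2 and NID1 were at -3.41, -3.30 and -2.03 there (edgeR adjusted p = 9.78e-06, 3.87e-06 and 7.69e-05).

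Tetraspanins and other lateral partners had 2 of 15 called lower, with a median of -0.68. SDC1, a proteoglycan that assists integrin adhesion, was at 154, 171 and 175 CPM in the lysates, 36.5 in IP 1, 62.7 in the library labelled IP 2 and 38.5 in IP 3, and TSPAN14, a tetraspanin, fell by 1.16 on the log2 scale (edgeR adjusted p = 0.0486 and 0.0455). Without the library labelled IP 2, 13 of the 15 were called lower and 0 higher, with SDC1 at -2.14 and TSPAN14 at -1.12 (edgeR adjusted p = 8.23e-06 and 2.94e-05). The adhesion complex inside the cell had 0 of 35 called over 6 libraries, with a median of -0.48. An unadjusted edgeR p under 0.05 was found for 15 of the 35, beside 4385 of all 20593 tested genes. Its lowest p-values were those of DOCK1, a Rac exchange factor (log2 fold change -1.05, edgeR adjusted p = 0.0518), and TGFB1I1, a paxillin relative (-2.05, edgeR adjusted p = 0.0588). Without the library labelled IP 2, 29 of the 35 were called lower and 1 higher. Of all tested genes 27.2% were called lower and 23.9% higher in that fit. Talin (TLN1) and integrin-linked kinase (ILK), which act at integrin tails, were chosen here after their values were seen: TLN1 was at 288 to 304 CPM in the lysates, 85.6 in IP 1, 584 in the library labelled IP 2 and 94.3 in IP 3. ILK was at 62.9 to 65.2, 27.1, 229 and 22.8 CPM in the same order. Both had the order of ITGA5.

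Other integrin subunits had 0 of 7 called, with a median of 0.23, and without the library labelled IP 2 had 2 lower and 2 higher. For this and the lists below, the shares of all tested genes in that fit were 27.2% lower and 23.9% higher. ITGA4 had a log2 fold change of -0.99 (edgeR adjusted p = 0.0996), and ITGA11, under 1 CPM in every library, had 3.04 (edgeR adjusted p = 0.126). ITGB6, a further partner of ITGAV named after its values were seen, was at 50.7, 52.0 and 42.8 CPM in the lysates, 88.8 in IP 1, 7.86 in the library labelled IP 2 and 74.3 in IP 3. It was higher without that library (log2 fold change 0.76, edgeR adjusted p = 0.00213), where ITGAV and the 4 listed beta subunits that pair with it were lower. Inhibitors and traffic of integrins had 0 of 13 called, with a median of -0.26, and without that library 7 lower and 3 higher. DAB2, an endocytic adaptor of beta subunits, had a log2 fold change of -1.59 (edgeR adjusted p = 0.0851) and DOK1, which binds beta tails, -0.86 (edgeR adjusted p = 0.119). Hemidesmosome partners had 0 of 4 called, with a median of 1.08, and without that library 1 lower and 2 higher. DST, a plakin, was at 163 to 176 CPM in the lysates, 519 in IP 1, 256 in the library labelled IP 2 and 535 in IP 3, above the lysates where ITGB4 lay below (log2 fold change 1.35, edgeR adjusted p = 0.106). PLEC (plectin), named after its values were seen, was at 74.4 to 82.2 CPM in the lysates, 30.5 in IP 1, 375 in the library labelled IP 2 and 13.5 in IP 3, and fell by 1.84 on the log2 scale without that library (edgeR adjusted p = 0.00412). COL17A1, a hemidesmosome collagen, was under 1 CPM outside the library labelled IP 2, where it was at 4.35 CPM (log2 fold change 1.77, edgeR adjusted p = 0.586). Other surface receptors, listed for comparison, had 0 of 20 called and a median of -0.54. With that library left out they had 14 lower and 0 higher, with a median of -1.04 beside -1.35 for the 10 integrin genes. The adhesion complex, matrix ligands and lateral partners had medians of -1.01, -1.44 and -1.31 there. PTPRK and CD46 had the lowest p-values among these receptors over 6 libraries, with log2 fold changes of -1.03 and -0.97 (edgeR adjusted p = 0.0880 and 0.0943).

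**Figure D5:**
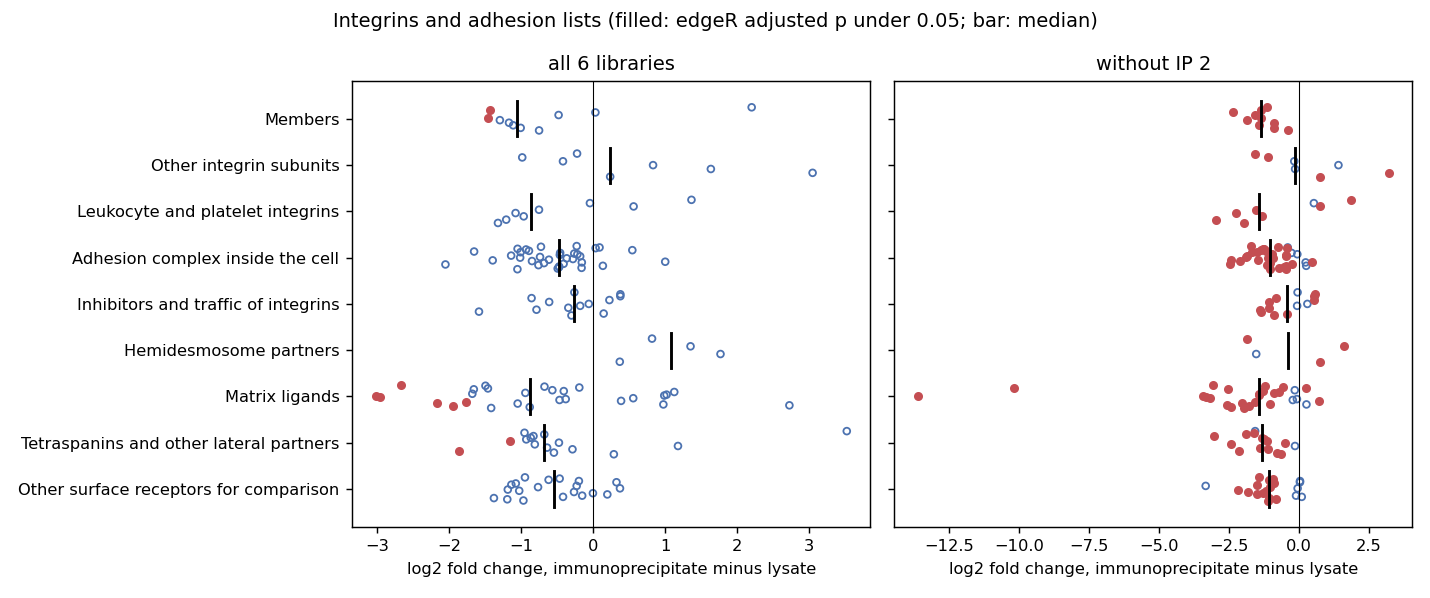
Log2 fold change, immunoprecipitate minus lysate (x axis), of each tested gene of the 10 integrin subunits and of 8 lists (y axis), over all 6 libraries and without IP 2; filled points passed edgeR at an adjusted p under 0.05 and bars are medians. Points beyond -10 on the right are genes at or near 0 counts in IP 1 and IP 3, whose fitted values are no measure of size.

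Leukocyte and platelet integrins had 0 of 8 called over 6 libraries, with a median of -0.86, and without the library labelled IP 2 had 5 lower and 2 higher. ITGAE had a log2 fold change of 0.56 (edgeR adjusted p = 0.289) and ITGAX -0.97 (edgeR adjusted p = 0.253). ITGB2, the shared beta subunit of leukocytes, was named after its values were seen and was at 77.5, 55.8 and 50.1 CPM in the lysates, 12.3 in IP 1, 63.4 in the library labelled IP 2 and 3.58 in IP 3. The summed FPKM of 9 neutrophil markers was 194 to 336 in the lysates, 79.8 in IP 1, 247 in the library labelled IP 2 and 10.6 in IP 3. MPO and ELANE were at most 0.254 FPKM, while FCGR3B, CSF3R and S100A9 had counts in every library. The summed FPKM of 5 other leukocyte markers was 83.3 to 93.0 in the lysates, 14.6 in IP 1, 76.3 in the library labelled IP 2 and 7.89 in IP 3. Most of this sum was CD68, at 72.3 to 75.2, 8.69, 60.0 and 5.42 FPKM in the same order. ITGA2B, the platelet partner of ITGB3 and also named after its values were seen, was at 3.19 to 4.28 CPM in the lysates, 14.7 in IP 1, 2.00 in the library labelled IP 2 and 12.2 in IP 3. The 4 platelet markers summed to 4.35 to 8.02 FPKM in the lysates, 35.8 in IP 1, 4.42 in the library labelled IP 2 and 23.4 in IP 3. Most of the sums in IP 1 and IP 3 was PPBP, at 28.7 and 18.0 FPKM, with PF4 at 6.41 and 5.01. The platelet markers did not rise as one. GP1BA was at 0.225 and 0.288 FPKM in IP 1 and IP 3, within its lysate range of 0.219 to 0.561, and GP9 had at most 24 counts in any library. ITGB3 itself was lower in IP 1 and IP 3 than in the lysates. In these bulk libraries, a smaller share recovered with the beads, fewer cells of a type and less RNA per cell cannot be told apart.

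Markers of epithelium and fibroblasts also moved with the libraries. The 6 epithelial markers summed to 175 to 183 FPKM in the lysates, 85.6 in IP 1, 317 in the library labelled IP 2 and 90.8 in IP 3. They did not move as one in the library labelled IP 2. KRT7 was at 49.8 FPKM there against 6.12 to 6.66 in the lysates, and EPCAM was at 6.78 against 31.7 to 34.7. The 10 proximal tubule markers found summed to 92.9 to 96.8 FPKM in the lysates, 60.2 in IP 1, 84.6 in the library labelled IP 2 and 58.7 in IP 3. Here too the sum in the library labelled IP 2 hid opposite moves. ANPEP was at 56.9 FPKM there against 2.45 to 3.98 in the lysates, and GGT1 at 9.99 against 45.8 to 48.3. PAX8 was at 8.36 FPKM in the library labelled IP 2 and at 35.0 and 35.4 in IP 1 and IP 3. The 8 fibroblast markers summed to 36.6 to 38.8 FPKM in the lysates, 6.23 in IP 1, 38.1 in the library labelled IP 2 and 6.65 in IP 3. That sum in the library labelled IP 2 was near the lysates only because markers moved in opposite directions. LUM was at 6.28 FPKM there against 29.0 to 30.8 in the lysates, and COL1A1 at 15.4 against 2.40 to 3.02. COL1A2 was at 0 counts in IP 1 and IP 3. The 4 endothelial markers summed to at most 3.76 FPKM in every library, with CDH5 at 0 counts in 4 of them. The part of these marker genes in the integrin values was not tested.

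The 5 genes whose values over the 6 libraries were most like the mean profile of the 10 integrin genes were UBQLN1, RAB5C, PSAP, WASF2 and TMBIM6, with Pearson's r from 0.9994 to 0.9998 on log2(CPM + 1) among 12039 genes whose mean reached 5 CPM. The 6 points share their library and its scaling, and r is given as a description. RAB5C, a GTPase of early endosomes, was at 226, 239 and 233 CPM in the lysates, 53.4 in IP 1, 145 in the library labelled IP 2 and 51.4 in IP 3. The mean integrin profile, centred per gene, was 0.47, 0.52 and 0.51 in the lysates, -0.80 in IP 1, 0.09 in the library labelled IP 2 and -0.79 in IP 3 (log2). This mean hides the split seen above, since ITGA2 and ITGB8 lay at opposite ends in the library labelled IP 2.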

How the data were processed

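RNA from 6 HK2 libraries was grouped by sample titles. Libraries were stranded (dUTP), paired-end and made from polyadenylated RNA, per the labels' protocols. The use of strand in counting is not given in the sources consulted. StringTie 2.1.6, HISAT2 2.2.1, cutadapt 1.9, DESeq2 and edgeR appear in the submitters' processing notes with the build GRCh38.p14 and without roles. Deposited values are whole-number counts per gene and per transcript and FPKM, per the file headers. The treatment labels number the plasmid differently in each sample, so the titles, which name VMP1, were used.

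Genes, transcripts and transcript usage were tested with edgeR 4.0.16 (quasi-likelihood, TMM, filterByExpr; R 4.3.3) over the whole tables, Benjamini-Hochberg adjusted, with a threshold of 0.05. SE was taken as the fitted log2 difference over the root of the F statistic. CPM levels were scaled with TMM factors. Shifts of 1 library used log2(CPM + 0.5). Subunits were compared with each other by FPKM. Promoter motifs were counted in RefSeq sequences (GRCh38.p14). The code was tested on simulated data. Named genes were the 10 members, up to 3 called genes per list or else the 2 with the lowest p, the 5 most alike genes, and transcripts with at least 10% of their gene's counts in a group mean; exceptions are stated. Members and lists were chosen with earlier results of these data known. Alternatives were other scalings and filters, DESeq2 1.42.0, limma 3.58.1 on log2 FPKM, a replicate block and leaving out each library. Replicate numbers were not treated as pairs in the main fit. Deviations of same-numbered libraries from their group means correlated at -0.006, -0.051 and 0.007. The library labelled IP 2 stood apart from the other immunoprecipitates, so these values cannot show whether the numbers pair libraries.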

Additional observations from a re-analysis of the deposited data

How the results depend on the processing

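Over 6 libraries edgeR called 2 integrin subunit genes, and this number changed with the processing: 1 with RLE size factors, 6 with DESeq2, and 0 with upper quartile scaling, library totals only, no filter or limma on log2(FPKM + 0.1). Leaving out 1 library gave 0 to 10 genes, with 10 only without FLAG immunoprecipitate 2 and 0 for each of the others. Of the 129 list genes tested 8 were called, against 4 with RLE size factors, 5 with library totals and 15 with limma on log2(FPKM + 1). The number was 2 with no filter, where 132 were tested, and 1 with limma on log2(FPKM + 0.1). DESeq2 called 36, 34 lower and 2 higher, where it called 6.55% of all genes lower and 10.5% higher. With 1 library left out the number ran from 0 to 104, with 104 (92 lower, 12 higher) only without FLAG immunoprecipitate 2. In that fit 27.2% of all tested genes were called lower and 23.9% higher. Shares of all genes under the other alternatives are not given here. Member transcripts called were 0 to 13 and genes with called usage 0 to 1 with 1 library left out. With the replicate number as a block, 0 integrin genes and 0 list genes were called. ITGA5 was at -1.24 and COL17A1 at -0.70 there (log2 fold change). Whether same-numbered libraries are pairs is not known. The sign of ITGA5 also turned with limma, to -0.87 (pseudocount 1) and -0.94 (0.1), and ran from -2.33 to 0.50 with 1 library left out, being -0.02 without lysate 3. With 1 library left out, ITGA2 ran from -1.13 to 2.73 and COL17A1 from -1.52 to 2.33, each lowest without FLAG immunoprecipitate 2. The other 8 integrin genes kept their direction under all alternatives run, ITGA3 between -1.51 and -1.28 and ITGAV between -1.55 and -1.28. Their edgeR, DESeq2 or limma adjusted p ran from 2.07e-16 to 0.399 for ITGA3 and from 1.29e-09 to 0.410 for ITGAV. The median of all genes moved by 0.13 with library totals and by -0.20 with the block. The cause of these changes was not tested. The lowest count of an integrin gene in a library was 239.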
